A study of Mus musculus with 2 samples.

Results

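Cytosolic ribosomal protein genes were described across the cells of the mouse aorta, in 1 library from diabetic mice and 1 from control mice. Members were all genes whose symbol begins with Rpl, Rps or Rplp and a digit, together with Rpsa, leaving out ribosomal protein kinases (Rps6k) and pseudogene symbols with "-ps". The rule found 85 of the 19357 genes with a row in either library, and all 85 had a row in both. They comprised 46 large-subunit proteins, 31 small-subunit proteins, 7 paralogues (second gene copies: Rpl3l, Rpl7l1, Rpl22l1, Rpl36al, Rpl39l, Rps27l and Rps27rt) and Rps19bp1, which encodes a protein that binds Rps19 and is not itself part of the ribosome. The 8 "-ps" rows were left out.

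A ribosome is built from a large and a small subunit, each a scaffold of ribosomal RNA clothed with proteins that are mostly present in 1 copy. The large subunit joins amino acids and carries a flexible stalk (Rplp0, Rplp1 and Rplp2) that recruits elongation factors, and the small subunit decodes the messenger RNA. Most transcripts of these proteins begin with a C followed by a run of pyrimidines, the terminal oligopyrimidine tract, through which the kinase complex mTORC1 and the protein Larp1 control their translation and stability. Ribosomal protein transcripts are among the most abundant in any cell, and small lymphocytes are known for a high share of them.

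The diabetic library came from male Apoe-/- mice on a C57BL/6 background that received streptozotocin, which kills the beta cells that make insulin, at 55 mg/kg per day for 5 days from 6 weeks of age. The control library came from Apoe-/- males that received citrate vehicle on the same schedule, and both groups were followed for 10 weeks, with a labelled age of 17 weeks. Loss of Apoe, a lipoprotein ligand, gives raised cholesterol and atherosclerosis, and it was shared by both groups. The aortae of 4 mice were pooled per library after enzyme digestion, a culture incubation and a sort for viable cells, so each group is 1 sample with no replicate. No p-value is given, and every interval covers counting error only.

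Each library was read from the 3' end of transcripts with unique molecular identifiers (UMIs), so that 1 UMI stands for 1 captured molecule and levels need no correction for gene length. The deposited annotation placed 2524 of 3458 diabetic and 3060 of 4215 control barcodes in 13 cell classes. Annotated cells held 11833577 UMIs in the diabetic and 12390769 in the control library, with a median of 4478 and 3760 UMIs per cell. The libraries shared 15 barcodes, 8 of them annotated in both. Comparisons were made in the 7 classes with at least 50 cells in each library: endothelial cells (ECs), fibroblasts (Fib-1, Fib-2 and Fib-3), macrophages (Mac) and vascular smooth muscle cells (VSMCs-1 and VSMCs-2). All 8 markers of the labelled cell type were detected in both libraries in each of these classes. Values alone are given for the other 6: B Cells, T cells, NKT Cells, Mono, MoDC and Foam cells, the usual name of lipid-laden macrophages.

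The diabetic and control libraries differed in other ways beside the ribosomal protein genes. Haemoglobin genes took 1.14% of the annotated UMIs in the diabetic and 0.217% in the control library, and mitochondrial genes took 4.32% and 3.13%. Summed erythroid markers were at 11577 CPM (the UMIs of a gene scaled to a total of 1000000 UMIs of the same cells) in diabetic and 116 CPM in control VSMCs-2, at 7993 and 139 CPM in Fib-2, but at 7624 and 8015 CPM in ECs. In Fib-1 they were at 46236 and 2527 CPM, in Fib-3 at 20487 and 113 CPM, in VSMCs-1 at 37125 and 18990 CPM and in Mac at 5131 and 3719 CPM. Summed macrophage markers were lower in all 7 classes of the diabetic library, at 0.0756 (Fib-3) to 0.626 (Mac) of the control level. In Mac itself they were at 25475 CPM in diabetic and 40695 CPM in control cells, while summed foam cell markers were at 2677 and 1868 CPM. Summed fibroblast markers were lower in all 7, at 0.595 to 0.885. Summed smooth muscle markers were higher in the 5 classes that are not smooth muscle, from 1.18 times in ECs to 2.70 times in Mac (744 CPM in diabetic and 276 CPM in control Mac), and stood at 0.89 in VSMCs-1 and 0.97 in VSMCs-2. The part of these differences in the results below was not tested, except where a value without the cells or genes concerned is given.

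Start-site sequences of 4 members are shown: Rps2 and Rps12 were higher in the diabetic library in all compared classes, and Rps27 and Rps27rt are copies of one another. Each window holds 20 bases before the annotated RefSeq transcript start and 20 bases from it on, in build GRCm38.p6, 5′ to 3′ on the gene's strand, with capitals for a C followed by at least 5 pyrimidines, or the part of such a run that lies inside the window.
Rps2, chr17:24720043-24720082, plus strand: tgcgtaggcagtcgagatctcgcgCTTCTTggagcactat
Rps12, chr10:23787190-23787229, minus strand: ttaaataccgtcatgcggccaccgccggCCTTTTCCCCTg
Rps27, chr3:90213629-90213668, minus strand: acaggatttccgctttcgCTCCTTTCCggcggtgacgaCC
Rps27rt, chr9:114982720-114982759, minus strand: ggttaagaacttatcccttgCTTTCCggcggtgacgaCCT
A C followed by at least 5 C or T letters lay within 25 bases of the start, on the gene's strand, in 43 of the 64 ribosomal protein members with a promoter sequence (Rps19bp1 not counted), or 67.2%. The share was 38.5% of 27025 genes with such a sequence and 40.0% of the 13818 that also had a row. The motif CCGGAAG, read on both strands of the 300 bases around the start, was in 26 of the 64 (40.6%), against 9.93% of all genes and 16.0% of those with a row. The motif AAGATGGC was in 6 of the 64 (9.38%), against 3.19% and 4.26%. The 2 motifs can overlap by the letters AAG, and CTTCC in the reverse of CCGGAAG can lie inside a pyrimidine tract; a match is a description of these letters, not a site of binding. Over all annotated cells the median log2 ratio of diabetic over control was 0.21 in the 42 tested members with the tract and 0.18 in the 20 tested members without it, Rps19bp1 again not counted.

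Rps27 encodes a small-subunit protein with a zinc finger, Rps27l is its diverged paralogue, and Rps27rt is a copy on another chromosome. Over the 255 coding bases of each gene, Rps27rt differed from Rps27 at 0 positions, and Rps27l differed at 61 (76.1% identity). The first 60 coding bases of each are shown to make this visible, with capitals where a base differs from Rps27.
Rps27: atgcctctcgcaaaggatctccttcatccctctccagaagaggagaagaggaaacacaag
Rps27rt: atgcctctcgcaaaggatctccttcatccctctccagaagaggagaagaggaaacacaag
Rps27l: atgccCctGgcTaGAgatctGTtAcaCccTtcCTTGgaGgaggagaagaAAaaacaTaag
Reads from an identical 3' stretch cannot be assigned to 1 gene. Of the 85 members, 26 shared no stretch of 50 bases in the last 300 bases of their transcript with another annotated gene, 59 shared at least 1, and 44 shared at least 50% of these stretches. For 20 members the other gene also had a row. Rps27 shared all of its stretches and Rps27rt 88.4%, each with the other among the genes with a row, so their 2 levels are uncertain. Rps12 shared 94.4% with 23 genes including Rps12-ps3, Rps2 78.1% with 51 genes and Rpl13 83.3% with 13, and none of the genes that shared these stretches with Rps2 or Rpl13 had a row. Levels of such members are uncertain where the authors' counting could split or discard reads. The median log2 ratio over all annotated cells was 0.19 in the 44 tested members that shared at least 50% and 0.21 in the 39 that shared less.

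Ribosomal protein genes took a larger share of the UMIs in the diabetic library in every one of the 13 classes. Over all annotated cells the share was 17.6% in the diabetic and 15.4% in the control library, a ratio of 1.14 (95% interval 1.14 to 1.15). A ratio of at least 1.2-fold whose interval excluded 1 was reached by 2 of the 7 compared classes. In Mac the share was 22.5% in diabetic and 17.8% in control cells, a ratio of 1.27 (1.26 to 1.27), and in Fib-2 it was 15.4% and 12.6%, a ratio of 1.22 (1.22 to 1.23). The other 5 ran from 1.18 in Fib-3 (21.8% in diabetic and 18.4% in control cells) and 1.17 in ECs (22.2% and 19.0%) through 1.14 in VSMCs-1 (15.5% and 13.7%) and 1.096 in Fib-1 (11.7% and 10.7%) to 1.08 in VSMCs-2 (15.3% and 14.2%). With the classes weighted as in the control library, the diabetic share was 18.4%, or 1.19 times the control share. Without mitochondrial and haemoglobin UMIs the ratio was 1.17 over all annotated cells and between 1.098 (VSMCs-2) and 1.28 (Mac) by class. Without cells over 5% haemoglobin UMIs it was 1.16 and between 1.09 (VSMCs-2) and 1.27 (Mac).

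**Figure D1:**
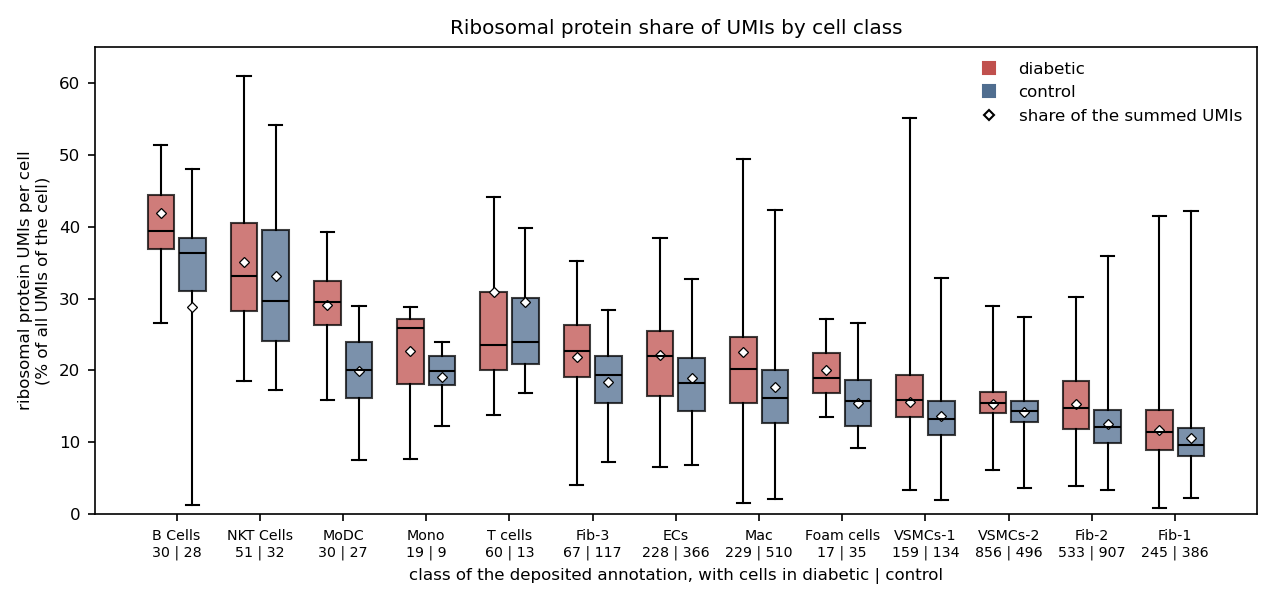
Ribosomal protein share of each cell's UMIs (percent, vertical axis) by class, diabetic left of control; boxes are quartiles with the median, whiskers reach the lowest and highest cell, and diamonds mark the share of the summed UMIs. The diabetic diamond lies above the control diamond in all 13 classes, and the diabetic median lies above the control median in 12, the exception being T cells at 23.6% and 24.0%.

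Single cells varied far more than the libraries differed. In Mac the share per cell ran from 1.60% through a median of 20.2% to 49.4% in diabetic cells and from 2.15% through 16.1% to 42.3% in control cells. In ECs the medians were 21.9% in diabetic and 18.3% in control cells, and in Fib-2 they were 14.8% and 12.1%. VSMCs-2 were the tightest class, with quartiles of 14.1% and 17.0% around a median of 15.4% in diabetic cells and of 12.8% and 15.7% around 14.3% in control cells. The ranges of the libraries overlapped in every class.

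The Mac class held transcripts of lymphocytes, which have a high ribosomal protein share. Summed T cell markers were at 712 CPM in diabetic and 351 CPM in control Mac, summed B cell markers at 341 and 528 CPM, and summed NK and NKT markers at 152 and 312 CPM. At least 3 UMIs of these lists together were found in 99 of 229 diabetic Mac (43.2%) and in 192 of 510 control Mac (37.6%). In those cells the ribosomal protein share was 24.8% in diabetic and 20.2% in control cells, and in the remaining Mac it was 18.3% and 15.1%, a ratio of 1.21. In the other 6 compared classes at most 2 cells per library had 3 such UMIs. Cells with more UMIs reach this cut more readily, and the Mac share also rose with UMIs per cell. Under 2000, from 2000 to 4000 and over 4000 UMIs it was 15.9%, 19.9% and 23.4% in diabetic Mac. In control Mac it was 13.8%, 15.3% and 18.5%. The part of depth in the split by lymphocyte markers was not tested.

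The ratio was over 1 at nearly every depth. In cells with under 2000 UMIs it was 1.24 over all annotated cells (16.4% in 453 diabetic and 13.3% in 602 control cells), from 2000 to 4000 UMIs it was 1.24, and over 4000 UMIs it was 1.11. ECs with under 2000 UMIs were the exception, at 15.6% in 39 diabetic and 15.9% in 107 control cells, a ratio of 0.98 (0.96 to 1.01). VSMCs-1 gave 1.38 under 2000 UMIs, 1.15 in the middle bin and 1.12 over 4000 UMIs. Bins with under 20 cells in a library are not read as a trend: Fib-2 under 2000 UMIs (7 diabetic and 3 control cells), Fib-3 from 2000 to 4000 (9 and 11), Fib-3 under 2000 (0 and 1), VSMCs-2 under 2000 (0 and 0), and Fib-1 over 4000 (3 and 0).

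Of the 6 small classes, all but Foam cells had a share above that of each compared class of the same library. For Mono this order is not firm. Its interval in the diabetic library (22.4% to 23.0%) held the share of Mac (22.5%). In the control library its interval (18.75% to 19.5%) held the share of ECs (19.0%). B Cells had 42.0% in 30 diabetic and 28.9% in 28 control cells, with medians per cell of 39.4% and 36.4%. A single control B cell with 20335 UMIs and a share of 1.34% held 23.1% of the UMIs of its class, and without it the control share was 37.1% and the ratio 1.13 (1.11 to 1.15). NKT Cells had 35.1% in diabetic and 33.2% in control cells, and T cells 30.9% and 29.6%. MoDC had 29.1% in 30 diabetic and 19.96% in 27 control cells, a ratio of 1.46 (1.44 to 1.48) that stood beside medians of 29.6% and 20.1%. Mono had 22.7% in 19 diabetic and 19.1% in 9 control cells, and Foam cells had 20.1% in 17 diabetic and 15.5% in 35 control cells.

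The share also differed between classes within each library. Set against all other annotated cells of the same library, ECs stood at 1.28 times in the diabetic and 1.26 times in the control library, Fib-3 at 1.25 and 1.21, and Mac at 1.32 and 1.201. Fib-1 were lowest, at 0.66 and 0.68 of the other cells. VSMCs-2 stood at 0.77 in the diabetic and 0.90 in the control library, Fib-2 at 0.85 and 0.76, and VSMCs-1 at 0.88 and 0.89. The authors defined the classes from genes of these same cells, so these ratios are descriptions. The order of neighbouring classes is not firm: among the compared classes of the diabetic library Mac (22.5%), ECs (22.2%) and Fib-3 (21.8%) lay within 1 percentage point of one another, and so did VSMCs-1 (15.5%), Fib-2 (15.4%) and VSMCs-2 (15.3%).

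Single members spanned a wide range of levels, and a narrow band held most of them. Over all annotated cells the median member stood at 2042 CPM in the diabetic and 1843 CPM in the control library, and 73 and 68 of the 85 members reached 1000 CPM. The highest was Rpl41, a very short and basic peptide of the large subunit, at 5157 CPM in diabetic and 4816 CPM in control cells. Rps29, a small zinc-finger protein, followed at 4458 and 4402 CPM, and Rps14, which lies by the messenger RNA exit channel, at 3971 and 3549 CPM. Rpl37a, Rpl13, Rpl10, Rps23, Rps27 and Rps19 were also among the 10 highest, between 3419 and 3923 CPM in diabetic and between 2754 and 3831 CPM in control cells. The 10 highest held 22.4% of the ribosomal protein UMIs in the diabetic and 23.3% in the control library.

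The lowest levels belonged to paralogues and to Rps19bp1. Rpl3l, a muscle form of the large-subunit protein Rpl3, had 11 UMIs in diabetic and 4 in control cells, and Rpl39l, known from the testis, had 10 and 16, so neither reached 30 UMIs. Rps19bp1 stood at 31.3 CPM in diabetic and 23.0 CPM in control cells, Rpl7l1 at 58.4 and 56.5 CPM and Rps27rt at 74.4 and 123 CPM. The better expressed paralogues were Rpl36al at 329 CPM in diabetic and 348 CPM in control cells, Rps27l at 505 and 511 CPM and Rpl22l1 at 857 and 801 CPM.

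**Figure D2:**
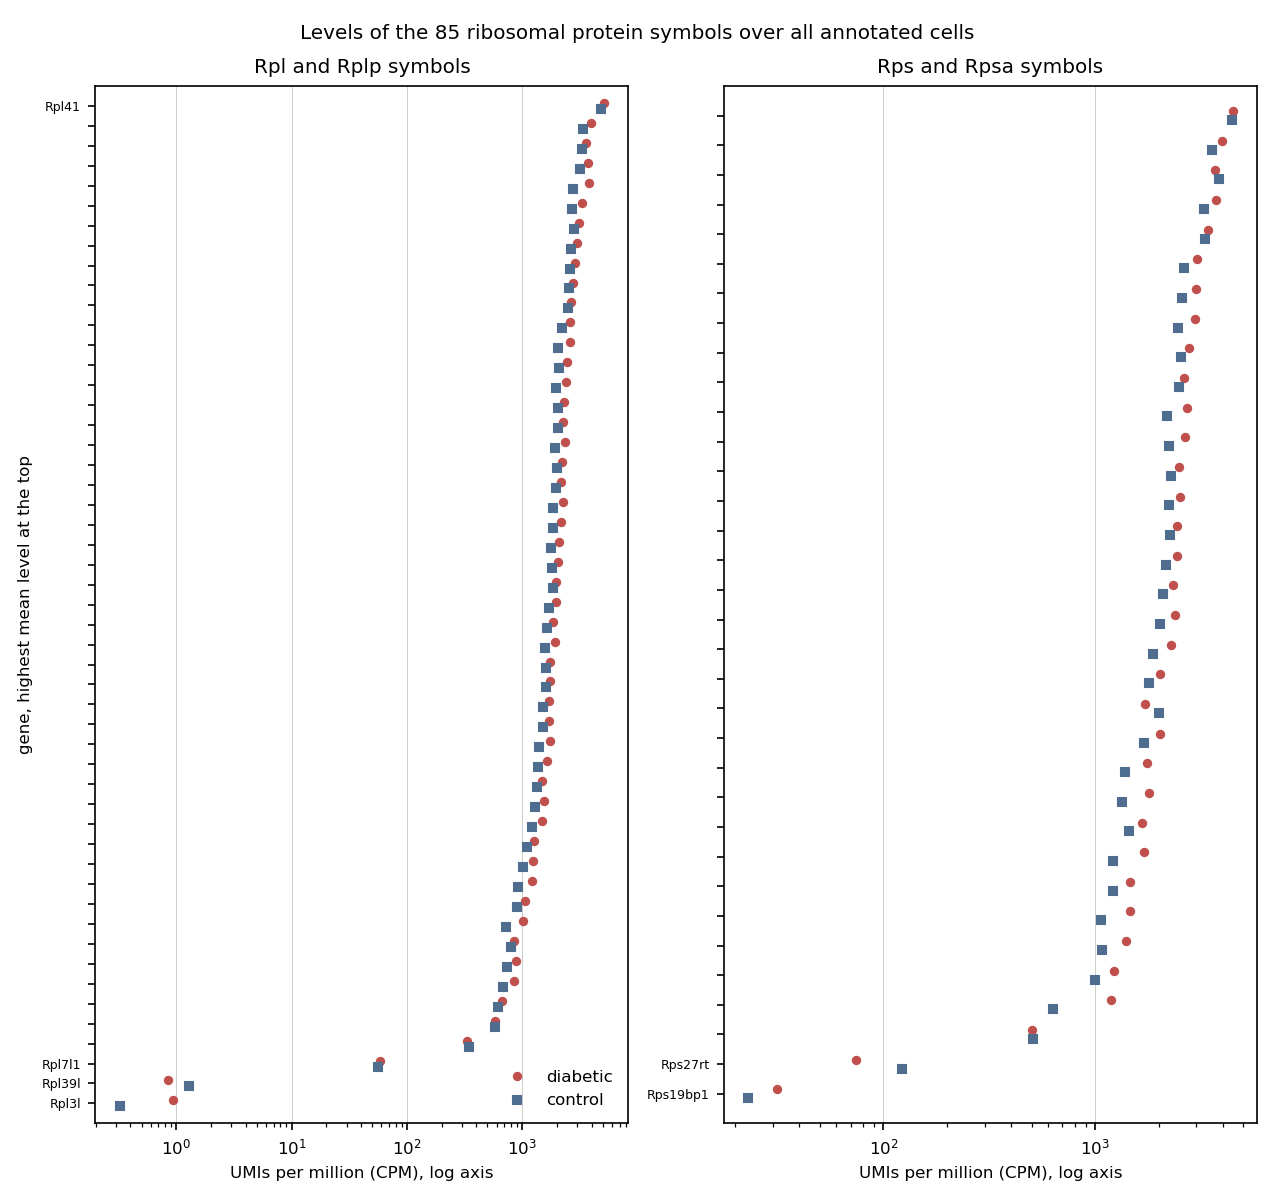
Level of each of the 85 symbols over all annotated cells in CPM (log axis), with circles for the diabetic and squares for the control library, ordered by the mean of both; the axis names the members given in this caption. Rpl41 leads with 5157 and 4816 CPM, and Rpl3l, Rpl39l, Rps19bp1, Rpl7l1 and Rps27rt close the list at 123 CPM or less.

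The large and the small subunit differed between the libraries by similar amounts. Over all annotated cells the 46 large-subunit members took 9.92% of UMIs in the diabetic and 8.60% in the control library (ratio 1.15), and the 31 small-subunit members took 7.52% and 6.62% (ratio 1.14). The largest subunit ratios by class were those of Mac, at 1.26 for the large and 1.28 for the small subunit, and the smallest were those of VSMCs-2, at 1.08 for both. The 3 stalk proteins summed to 8787 CPM in diabetic and 7502 CPM in control cells (ratio 1.17), with 1.31 in Mac and 1.06 in Fib-1. The 7 paralogues together stood at 1826 CPM in diabetic and 1841 CPM in control cells, a ratio of 0.99 (0.97 to 1.01). They were lower in VSMCs-2 (0.92, 0.89 to 0.95) and higher in Mac (1.12, 1.06 to 1.19). Large-subunit UMIs outnumbered small-subunit UMIs 1.32 times in the diabetic and 1.2998 times in the control library, from 1.19 and 1.201 in Mac to 1.40 and 1.40 in VSMCs-2 and 1.38 and 1.43 in VSMCs-1.

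Member by member, small shifts in 1 direction were common, and shifts past 1.5-fold were few. A gene counted as past a fold where it had at least 30 UMIs over both libraries in the class, its ratio reached that fold and its interval excluded 1. Over all annotated cells 26 of 83 tested members were past 1.2-fold higher and 1 was past 1.2-fold lower, against 18.3% and 18.0% of all 12753 genes tested. By class, 63 of 83 members were past 1.2-fold higher in Mac, where 13.2% of all genes tested were, 49 of 83 in Fib-2 (9.75% of all genes), 30 of 83 in Fib-3 (6.18%), 23 of 83 in ECs (6.51%), 19 of 82 in VSMCs-1 (4.88%), 13 of 82 in Fib-1 (5.2%) and 9 of 83 in VSMCs-2 (9.42%). Only in VSMCs-2 was the members' share, 10.8%, near that of all genes. The genes tested include any with at least 30 UMIs, and intervals of genes with few UMIs are wide. Most members had far more UMIs, so a 1.2-fold ratio was called more readily in them. No share was computed for genes of a matching level, and the part of depth in this gap was not tested. With edgeR's TMM scaling, which centres the bulk of genes, the count of members past 1.2-fold higher in Mac was 28 of 83, where 8.35% of all genes tested were, and in the other 6 classes it stayed within 1.5 times the count above. Past 1.2-fold lower, with CPM scaling, were 2 members each in ECs (8.23% of all genes), Fib-2 (8.5%) and VSMCs-2 (9.47%), 1 each in Mac (9.51%) and VSMCs-1 (6.66%), and 0 in Fib-1 (8.21%) and Fib-3 (10.3%).

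Past 1.5-fold the members' share was below that of all genes in each class, again without a match for level. Higher by this rule was 1 member over all annotated cells (8.95% of all genes), and by class 4 in Mac (8.79%), 2 in Fib-2 (5.43%), 1 each in ECs (4.18%), Fib-1 (3.45%), Fib-3 (4.15%) and VSMCs-2 (4.77%), and 0 in VSMCs-1 (3.23%). Lower was 1 member over all annotated cells (10.1% of all genes), 1 each in VSMCs-1 (4.82%) and VSMCs-2 (3.9%), and 0 in ECs (4.02%), Fib-1 (5.26%), Fib-2 (3.62%), Fib-3 (6.58%) and Mac (5.66%). Ratios of genes with few UMIs vary more by counting error. The part of depth in the gap between the members and all genes was not tested at this fold either.

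The median log2 ratio of the members was above that of all genes tested in each class. It was 0.34 in Mac, where the median of all genes was 0.06, 0.28 in Fib-2 (0.03), 0.23 in Fib-3 (-0.08), 0.21 in ECs (-0.03), 0.17 in VSMCs-1 (-0.02), 0.12 in Fib-1 (-0.08) and 0.10 in VSMCs-2 (0.02). With TMM scaling ratios in Mac moved by -0.12 on the log2 scale, and the share ratios of Mac and Fib-2 moved to 1.17 and 1.19, under the 1.2-fold rule. Of the 82 members tested in all 7 classes, 60 had a ratio over 1 in all of them and 2 (Rpl36al and Rps27rt) in none. The interval lay above 1 in all 7 classes for 15 members, among them Rpl10, Rpl13, Rpl19, Rpl26, Rpl39, Rplp2, Rps2, Rps3a1, Rps4x, Rps10, Rps12, Rps14, Rps20 and Rps24. Only Rpl13, Rps2, Rps12 and Rps20 were past 1.2-fold higher in all 7. These counts over the 7 classes were not made for all genes, and every class compares the same 2 libraries. They are therefore not read as particular to the members. Over the 7 classes, 206 pairs of a member and a class were past 1.2-fold higher and 8 lower, and 10 were past 1.5-fold higher and 2 lower.

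**Figure D3:**
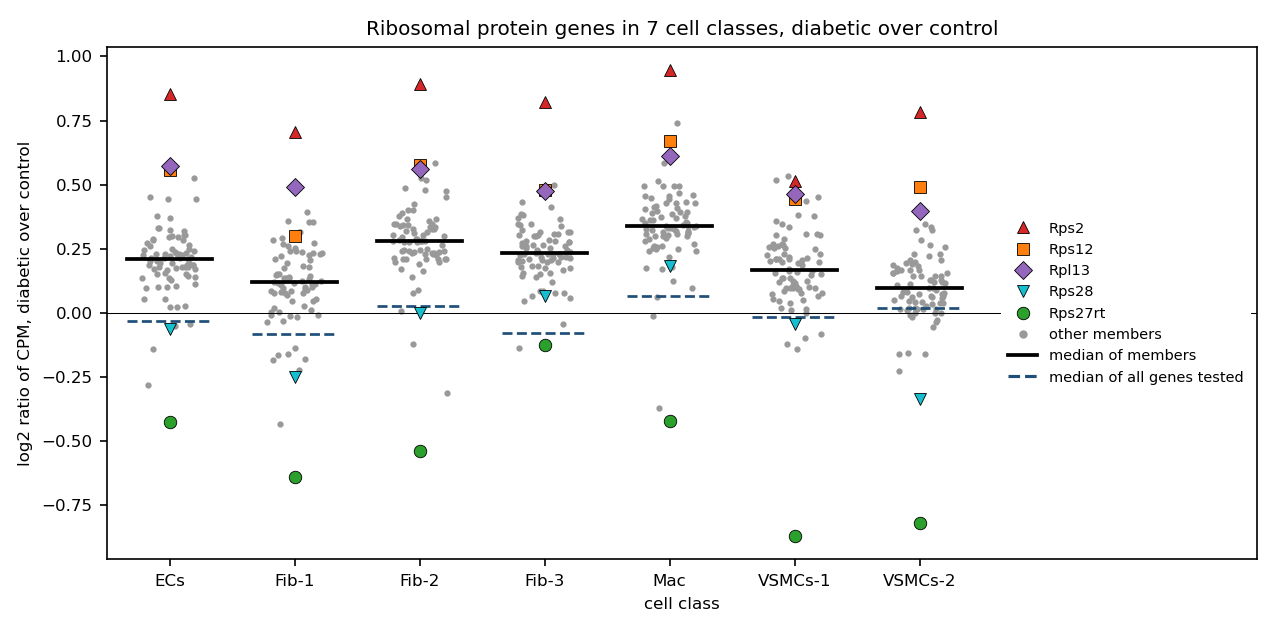
Log2 ratio of CPM, diabetic over control (vertical axis), of each tested member in the 7 compared classes; solid lines are the members' medians and dashed lines those of all genes tested. The solid line lies above the dashed one in each class, from 0.34 and 0.06 in Mac to 0.10 and 0.02 in VSMCs-2, with Rps2 above the members' median and Rps27rt below it everywhere.

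Rps2 had the highest ratio of the 83 tested members over all annotated cells. It encodes a small-subunit protein at the entry of the messenger RNA channel. Its level was 1180 CPM in diabetic and 629 CPM in control cells, 1.88-fold (1.82 to 1.93). By class it was 1214 CPM in diabetic and 672 CPM in control ECs (1.81-fold), 581 and 357 CPM in Fib-1 (1.63-fold), 1048 and 565 CPM in Fib-2 (1.86-fold), 1586 and 897 CPM in Fib-3 (1.77-fold), and 1122 and 582 CPM in Mac (1.93-fold). VSMCs-2 had 1189 CPM in diabetic and 691 CPM in control cells (1.72-fold), and VSMCs-1 830 and 581 CPM (1.43-fold, 1.195 to 1.71). All 7 classes were higher in the diabetic library, and all but VSMCs-1 were past 1.5-fold.

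The Rps2 difference was larger than that of the ribosomal proteins as a whole. As a share of the ribosomal protein UMIs, Rps2 took 0.670% in diabetic and 0.408% in control cells, and the ratio of these shares was between 1.26 (VSMCs-1) and 1.60 (VSMCs-2). It was the only one of the 82 members tested in all 7 classes whose share of the ribosomal protein UMIs was past 1.2-fold higher in each. The small classes gave 2.31-fold in B Cells (2179 CPM in diabetic and 944 CPM in control cells), 2.22-fold in T cells, 2.12-fold in NKT Cells, 2.08-fold in MoDC and 1.95-fold in Foam cells, while in Mono the interval held 1 (1.38-fold, 0.89 to 2.20). Rps2 lies at chr17:24718116-24721929 on the plus strand (mm10), where the annotation puts Snhg9 on the other strand. Snhg9 had 110 UMIs in diabetic and 157 in control cells, against 13967 and 7795 of Rps2, and whether counting used strand is not given in the sources used here.

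Rps12, Rpl13 and Rps20 were higher in each compared class as well, by smaller ratios. Rps12, of the small subunit, stood at 1690 CPM in diabetic and 1212 CPM in control cells (1.39-fold), with 2319 and 1459 CPM in Mac (1.59-fold, 1.51 to 1.67) and 731 and 594 CPM in Fib-1 (1.23-fold, 1.04 to 1.46). Rpl13, of the large subunit, stood at 3780 CPM in diabetic and 2754 CPM in control cells (1.37-fold), from 1.32-fold in VSMCs-2 (3225 and 2449 CPM) to 1.53-fold in Mac (4300 and 2816 CPM). Rps20, which sits in the head of the small subunit, stood at 1784 CPM in diabetic and 1336 CPM in control cells (1.34-fold), with its smallest ratio in Fib-1 (897 and 721 CPM, 1.24-fold) and its largest in Fib-2 (1405 and 977 CPM, 1.44-fold). Rpl12, of the base of the stalk, was higher in 6 of the 7 classes with the smallest ratio in VSMCs-2 (913 CPM in diabetic and 730 CPM in control cells, 1.25-fold) and the largest in Mac (1310 and 873 CPM), and in Fib-1 its interval held 1 (442 CPM in diabetic and 380 CPM in control cells).

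In VSMCs-1 the highest ratio by its lower bound belonged to Rps24, a small-subunit protein altered in human Diamond-Blackfan anaemia, at 2320 CPM in diabetic and 1622 CPM in control cells (1.43-fold, 1.29 to 1.59). In Fib-1 Rps3a1 stood next to Rps2 and Rpl13, at 1722 and 1346 CPM (1.28-fold, 1.14 to 1.43). The remaining pairs of a member and a class past 1.5-fold were Rps19bp1 in Mac (27.4 and 16.4 CPM, 1.67-fold, 1.02 to 2.71) and in Fib-2 (29.3 and 19.5 CPM, 1.501-fold, 1.05 to 2.14). Both rest on few UMIs. Without the single cell with the most Rps19bp1 UMIs in each library neither was past the rule: the ratio was 1.65 in Mac, with an interval that held 1 (0.99 to 2.72), and 1.497 in Fib-2, under 1.5-fold. With TMM scaling Rps12 and Rpl13 in Mac were at 1.46-fold and 1.41-fold, under the 1.5-fold rule.

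**Figure D4:**
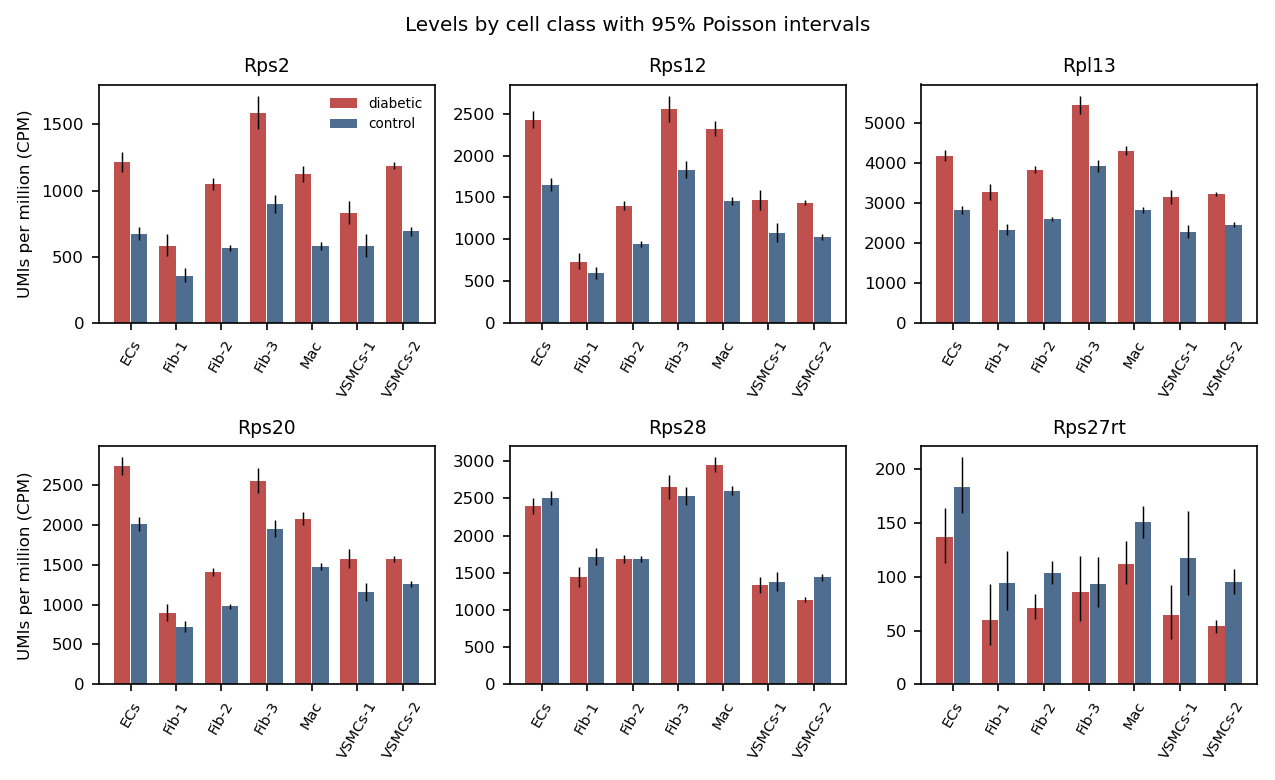
Level in CPM (vertical axis, from 0) of 6 members by class, diabetic left of control, with exact 95% Poisson intervals for counting error. Rps2, Rps12, Rpl13 and Rps20 are higher in the diabetic bars of all 7 classes, Rps27rt is lower in all 7, and Rps28 is lower in VSMCs-2 (1140 and 1440 CPM) and higher in Mac (2950 and 2602 CPM).

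A few members were lower in diabetic cells. Rps27rt, the copy of Rps27, stood at 74.4 CPM in diabetic and 123 CPM in control cells, 0.61 times (0.56 to 0.66). It was past 1.5-fold lower in VSMCs-1 (64.2 and 117 CPM) and VSMCs-2 (53.9 and 95.2 CPM), and below 1 in the other classes, with intervals that held 1 in Fib-1 and Fib-3. Its near-identical partner Rps27 stood at 3678 CPM in diabetic and 3831 CPM in control cells, 0.96 times, and most UMIs of the pair were assigned to Rps27. By class, however, the ratio of Rps27 was over 1 in 6 of the 7 classes. Its interval lay above 1 in 4 classes and below 1 in 1, VSMCs-2. The part of class make-up in the ratio over all annotated cells was not tested. Rpl36al, a copy of Rpl36a, was lower in Fib-2 (230 and 286 CPM), ECs (285 and 346 CPM) and VSMCs-2 (351 and 411 CPM), and its interval held 1 in the other 4 classes.

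Rps28, a small protein near the messenger RNA exit, stood at 1720 CPM in diabetic and 2000 CPM in control cells, 0.86 times (0.84 to 0.88). It was lower in VSMCs-2 (1140 and 1440 CPM, 0.79 times) and Fib-1 (1439 and 1714 CPM, 0.84 times), higher in Mac (2950 and 2602 CPM, 1.13 times), and its interval held 1 in the other 4 classes. Rpl27 and Rpl41 of the large subunit and Rps27 and Rps27l of the small subunit were also lower in diabetic VSMCs-2 and higher in diabetic Mac. The ribosomal protein genes together stood at 1.08 times in VSMCs-2 and 1.27 times in Mac. Each of these members was below that ratio in VSMCs-2. In Mac, Rps28, Rpl27 and Rps27 were below it, and Rpl41 and Rps27l were above it. Rpl27 stood at 574 CPM in diabetic and 640 CPM in control VSMCs-2 and at 739 and 656 CPM in Mac. Rpl41 stood at 4675 and 4862 CPM in VSMCs-2 and at 5843 and 4384 CPM in Mac. Rps27l stood at 478 and 534 CPM in VSMCs-2 and at 544 and 414 CPM in Mac. With TMM scaling the ratio in Mac was 1.04 for Rpl27, with an interval that held 1 (0.95 to 1.13), and 1.04 for Rps28 (1.001 to 1.09). The difference between the 2 classes was not tested.

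Members also differed between classes in a common way. In the diabetic library 71 of 82 members, and in the control library 70 of 81, were lowest in Fib-1. No share of all genes by highest or lowest class is given here, so such counts are not read as particular to the members. The highest level was in Mac for 28 members, in ECs for 26 and in Fib-3 for 26 in the diabetic library, and in Mac for 14, in ECs for 36 and in Fib-3 for 29 in the control library. The ratio of the highest to the lowest class was 2.32 for the median member in the diabetic and 2.01 in the control library. Taken as a share of the ribosomal protein UMIs these medians were 1.42 and 1.38, and 48 of 82 and 58 of 81 members varied by under 1.5-fold.

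By level in CPM, the members that varied most between classes included Rps12, Rps10, Rpl29 and Rps29. Rps12 was at 2551 CPM in Fib-3 and 731 CPM in Fib-1 of the diabetic library (3.49-fold) and at 1830 and 594 CPM in the control library. Rps10 was at 1911 CPM in Mac and 563 CPM in Fib-1 of the diabetic library. Rpl29, of the large subunit, was at 1732 CPM in ECs and 554 CPM in Fib-1 of the diabetic library and at 1377 and 422 CPM in the control library, where its ratio of 3.26 was the highest. Rps29 reached 8827 CPM in Mac of the diabetic and 7120 CPM in Mac of the control library. Rps3, Rps20, Rps24 and Rpl31 were also among the most variable, each lowest in Fib-1.

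Rpl22l1 went the other way. This paralogue of the RNA-binding large-subunit protein Rpl22 was highest in Fib-1, at 1430 CPM in diabetic and 1288 CPM in control cells, and lowest in Mac, at 682 and 569 CPM. As a share of the ribosomal protein UMIs it varied 4.04-fold between classes in the diabetic and 3.77-fold in the control library, the widest of all members in each. Rps19, the small-subunit protein most often mutated in human Diamond-Blackfan anaemia, took 3.44% of the ribosomal protein UMIs in Fib-1 and 1.52% in VSMCs-2 of the diabetic library, and 3.33% and 1.63% in the control library.

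Other genes of translation were set beside the members from lists that hold elongation factors with other transcripts that carry the tract, initiation factors, ribosome biogenesis factors, mTORC1 pathway genes and mitochondrial ribosomal proteins. The 12 elongation factors and other tract transcripts summed to 13471 CPM in diabetic and 10720 CPM in control cells (ratio 1.26), from 1.14 in Fib-1 to 1.26 in Mac. Without Eef1a1 and Tpt1 the other 10 genes summed to 5750 CPM in diabetic and 5075 CPM in control cells (1.13 times). By class these 10 stood between 1.01 in Fib-1, where 5 of them had a ratio under 1, and 1.12 in Fib-2, and the interval held 1 in Fib-1, Fib-3 and VSMCs-1. Their ratio over all annotated cells thus lay above that of each compared class, and the part of class make-up in it was not tested.

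Tpt1, a growth-related protein whose transcript carries the tract, led that list. It stood at 4163 CPM in diabetic and 2369 CPM in control ECs (1.76-fold), 3990 and 2355 CPM in Mac (1.69-fold), 2293 and 1440 CPM in Fib-2 (1.59-fold) and 1979 and 1279 CPM in VSMCs-1 (1.55-fold). The elongation factor Eef1a1, which delivers aminoacyl-tRNA, was at 1.19-fold (Fib-3) to 1.31-fold (VSMCs-1) by class, and Eef2, which moves the ribosome along, at 1.06-fold (VSMCs-2) to 1.195-fold (VSMCs-1). Of the 12 list members 1 was past 1.5-fold higher in each of ECs, Fib-2, Mac and VSMCs-1, and 0 were past 1.5-fold lower in any class. Each time the member past 1.5-fold higher was Tpt1. These calls were 4.76% of 84 tested pairs, against 3.23% to 8.79% of all genes higher by class.

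The lists of ribosome production and initiation lay near the control level. The 29 initiation factors summed to 8510 CPM in diabetic and 8559 CPM in control cells (0.99 times), between 0.93 and 1.03 by class. Over the 7 classes, 9 of 200 tested pairs of an initiation factor and a class were past 1.5-fold higher (4.5%) and 2 lower (1.0%), against 3.23% to 8.79% of all genes higher and 3.62% to 6.58% lower by class. Higher were Eif3f in ECs (101 CPM in diabetic and 44.8 CPM in control cells) and Mac, Eif3a and Eif4e in Fib-1, Eif4b in Fib-3 and VSMCs-1, Eif3j1 in Mac, Eif3m in VSMCs-1 and Eif3b in VSMCs-2. Lower were the helicases Eif4a1 in Fib-3 (494 and 761 CPM) and Eif4a2 in VSMCs-1 (344 and 550 CPM). The 36 biogenesis factors summed to 1894 CPM in diabetic and 1876 CPM in control cells (1.01 times), between 0.94 and 1.05 by class. Of 171 tested pairs 4 were past 1.5-fold higher (Taf1d in ECs, Tsr1 in Fib-2, Mrto4 in Mac and Gar1 in VSMCs-2) and 3 lower (Nmd3 in Mac, and Dkc1 and Nop16 in VSMCs-2). These were 2.34% and 1.75% of the pairs. Mitochondrial ribosomal proteins, 78 genes, summed to 5103 and 4828 CPM (1.06 times), at 1.12 in Mac and between 0.93 and 0.98 in the other 6 classes, so the ratio over all cells and those of 6 classes lay on opposite sides of 1. Of their 442 tested pairs 21 were past 1.5-fold higher (4.75%) and 9 lower (2.04%). The mTORC1 list, with a row for 18 of its 19 genes, summed to 646 CPM in diabetic and 533 CPM in control cells (1.21 times), from 0.95 in Fib-1 to 1.29 in Mac. Between 4 (Fib-1 and VSMCs-1) and 18 (VSMCs-2) of its genes reached 30 UMIs by class. Of 75 tested pairs 9 were past 1.5-fold higher and 2 lower. Alone among these lists, its share of higher pairs lay above the range of all genes by class (3.23% to 8.79%). Its share of lower pairs lay below the range of all genes (3.62% to 6.58%). Neither comparison was matched for level. Lower were Eif4ebp1 in Fib-1 (69.2 CPM in diabetic and 132 CPM in control cells) and Akt1 in Fib-3 (20.1 and 55.7 CPM). Higher were Rps6kb1 in ECs, Tsc2 and Sesn2 in Fib-2, Myc in Fib-3, Eif4ebp2 and Sesn2 in Mac, and Larp1, Mtor and Tsc1 in VSMCs-2; Tsc1, Tsc2 and Sesn2 are known as inhibitors of the pathway. In VSMCs-2 Larp1 stood at 19.6 CPM in diabetic and 11.9 CPM in control cells (1.65-fold, 1.11 to 2.52), Mtor at 20.3 and 11.9 CPM (1.71-fold, 1.15 to 2.60) and Tsc1 at 8.57 and 4.31 CPM (1.99-fold, 1.04 to 4.11).

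**Figure D5:**
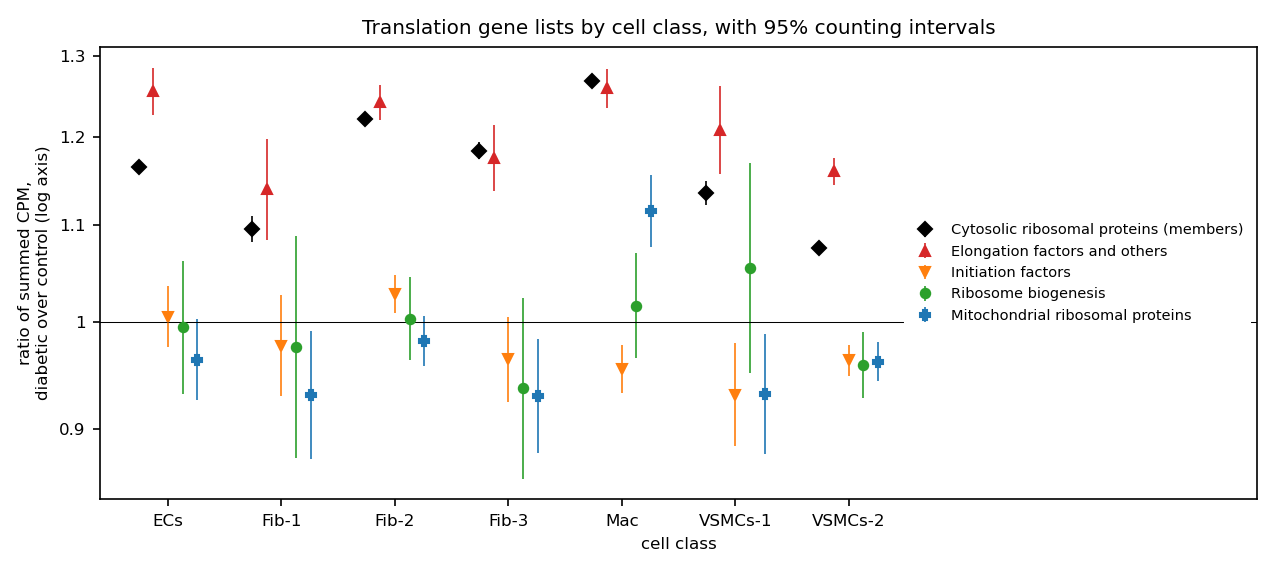
Ratio of summed CPM, diabetic over control (log axis), of the ribosomal protein genes and 4 other translation lists in the 7 classes, with exact 95% counting intervals. Ribosomal proteins and elongation factors with other tract transcripts lie between 1.08 and 1.27 in every class, and initiation and biogenesis factors lie between 0.93 and 1.05.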

How the data were processed

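Aortic cells of diabetic and control Apoe-/- mice were profiled with 10x 3' v2 chemistry, per the labels' protocols. The authors deposited unnormalized UMI counts for each gene in each barcode; the submitters' processing notes name Cell Ranger 3.1.0, Partek and mm10, and the gene models and barcode filter are not given in the sources used here. Barcodes without a class in the deposited annotation were used only as values. Doublets were not called here. The files hold 0 unused columns of per-sample values.

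Member and total UMIs were summed per library and class, and ratios of diabetic over control were given exact conditional binomial 95% intervals (scipy 1.17.1, Python 3.11.15). Levels have Poisson and shares Clopper-Pearson intervals. In Poisson counts simulated with known ratios the interval held the true ratio for 95.4% of 12765 genes over all annotated cells. Poisson counts are what the interval assumes, and they held no spread between cells or mice. The simulation therefore checks the calculation only, and cannot show how the intervals perform on these data. Alternatives were edgeR 4.0.16 TMM factors (R 4.3.3), other denominators, thinning to 1000 UMIs (seed 1) and cells left out.

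Named members were the 10 highest and 5 lowest levels, the 3 highest and 3 lowest ratios per class by the bound nearest to 1, the 8 most variable between classes and all paralogues; Rps20 was also named for being past 1.2-fold in every class. Some results that these rules select are not reported here. Members, lists and rules were chosen with earlier results of these data known, and the alternative without cells holding lymphocyte markers and the sum without Eef1a1 and Tpt1 were chosen after seeing the data. Positions are from GENCODE vM21 and promoters from RefSeq (GRCm38.p6).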

Additional observations from a re-analysis of the deposited data

Results flagged for a closer look

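Rps28 stood at 0.792 times the control level in diabetic VSMCs-2 and at 1.13 times in diabetic Mac, with both intervals away from 1 on opposite sides by CPM. Rpl27 stood at 0.897 times in VSMCs-2 and 1.13 times in Mac, Rpl41 at 0.962 and 1.33 times, Rps27 at 0.894 and 1.18 times, and Rps27l at 0.895 and 1.31 times. With TMM scaling, which moved ratios in Mac by -0.12 on the log2 scale, Rps28 stood at 1.04 times (1.001 to 1.09) and Rpl27 at 1.04 times (0.95 to 1.13, which holds 1) in Mac. The ribosomal protein genes together stood at 1.08 times in VSMCs-2 and 1.27 times in Mac by CPM. Rps28, Rpl27 and Rps27 were below that ratio in both classes, and Rpl41 and Rps27l only in VSMCs-2. Each group is 1 library, so the difference between the 2 classes was not tested.

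Barcodes outside the deposited classes also carried ribosomal protein UMIs. Barcodes with more genes than any annotated cell had a share of 25.03% in 114 diabetic and 20.6% in 73 control barcodes. Barcodes above the mitochondrial share of annotated cells had 9.52% in 324 diabetic and 7.81% in 151 control barcodes. Barcodes with over 50% haemoglobin UMIs had 0.228% in 487 diabetic and 0.294% in 29 control barcodes. Barcodes within the limits of annotated cells had 14.4% in 9 diabetic and 15.1% in 902 control barcodes.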

How the results depend on the processing

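The ribosomal protein share was higher in the diabetic library under every alternative run. Of 88 alternative ratios of diabetic over control 80 kept their side of the 1.2-fold rule and 0 reversed. ECs reached 1.21 per UMI of other genes, and Fib-3 reached 1.22 without mitochondrial and haemoglobin UMIs, 1.24 per UMI of other genes and 1.21 without cells over 5% haemoglobin UMIs. With TMM factors Fib-2 gave 1.19 and Mac 1.17, under the rule. VSMCs-1 reached 1.29 with equal weight for every cell and 1.22 with equal weight per depth bin. For a class over the other cells, 101 of 112 alternatives kept their side and 1 reversed: diabetic VSMCs-1 with equal weight per cell (1.03). In the diabetic library Fib-2 gave 0.822 per UMI of other genes and 0.830 thinned, Mac 1.18 with equal weight and 1.19 thinned, and VSMCs-2 0.834 with equal weight. In the control library Fib-3 gave 1.19 without mitochondrial and haemoglobin UMIs, and Mac gave 1.19 by the same step, 1.14 with equal weight, 1.15 thinned and 1.18 without the 5% of cells with most UMIs. The cause of these moves was not tested. Pairs of a member and a class past 1.5-fold numbered 10 higher and 2 lower; they numbered 6 higher with TMM, 16 higher per UMI of other genes, 19 higher with equal weight, 4 higher and 7 lower as a share of ribosomal protein UMIs, and 1 lower with a minimum of 100 UMIs. Members past 1.2-fold higher in Mac numbered 63, and 28 with TMM. Pairs numbered 206 higher and 8 lower at 1.2-fold, and 0 in either direction at 2-fold. No paired analysis was possible because each group has 1 library, and no replicate could be left out. Depth limited Rpl3l, Rpl39l and, by class, Rps19bp1.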
